A study of Mus musculus with 6 samples.

Results

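The glucocorticoid receptor gene Nr3c1 and 9 genes that glucocorticoids are known to induce, namely Fkbp5, Tsc22d3, Rasd1, Sgk1, Per1, Klf9, Zbtb16, Mt1 and Mt2, were followed in adipocytes with a knockdown of the RNA-binding protein RBMS1. The 10 genes were taken by name, as textbook glucocorticoid genes, with earlier results of these data already known. They are 10 of the 45706 genes in the table, and all 10 were among the 11440 genes that passed the filter on low counts. RNA was sequenced from 3T3-L1 cells, a mouse embryo fibroblast line that turns into adipocytes in culture, in 3 samples per group on day 7 of differentiation. The scrambled control group, labelled WT, carried a scrambled short hairpin RNA (shRNA). The RBMS1 knockdown group, labelled RBMS1KD, carried an Rbms1 shRNA delivered by lentivirus, and knockdown cells were selected with puromycin. The study describes both shRNAs as stably expressed, and puromycin selection is stated for the knockdown cells. Both groups received the same adipogenic cocktail of IBMX, insulin, rosiglitazone and dexamethasone, a synthetic glucocorticoid. Per the study's methods the cocktail was replaced by medium with insulin and then by plain medium before collection. All 6 samples analysed here had received dexamethasone early in differentiation.

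The glucocorticoid receptor sits in the cytoplasm with HSP90 and other chaperones until a glucocorticoid binds it. It then enters the nucleus, where it binds palindromic glucocorticoid response elements and raises the transcription of genes such as Fkbp5 and Tsc22d3, some of which feed back on the receptor or on inflammatory signaling. In cultured preadipocytes, dexamethasone is part of the standard mixture that starts adipogenesis.

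Total counts ranged from 3142695 to 11073098 per sample, and scrambled control replicate 2 stood apart with 43.0% of its counts in genes derived from ribosomal RNA, against 8.12% to 17.8% elsewhere. Levels are given as CPM, the counts-per-million unit, after scaling each library by its TMM factor (0.642 to 1.23). At these depths 3 counts correspond to 0.220 to 1.49 CPM, a limit that covers counting error only. Rbms1, the targeted gene, had 113, 102 and 99.6 CPM in the control samples and 49.2, 61.4 and 84.0 CPM in the knockdown samples. Each knockdown sample lay below each control sample, and knockdown replicate 3 was the closest to the controls. The log2 fold change was -0.69 ± 0.20 (SE, n = 3 per group), and its adjusted p of 0.185 (quasi-likelihood test of edgeR, Benjamini-Hochberg adjusted over all tested genes) was above the threshold of 0.1. Without knockdown replicate 3 it was -0.92, with an adjusted p of 0.0708 from the same edgeR test. Rbms1 did not pass in any other alternative tried. Its adjusted p was 0.108 by DESeq2 and, from the edgeR test, 0.155 to 0.454 with any other sample left out. With libraries scaled by their size alone its log2 fold change was -0.31, with an adjusted p of 0.572 from the edgeR test.

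The RefSeq promoter table (GRCm38.p6, 250 bases before to 50 after each start) held 7 of the 10 genes, and Nr3c1, Rasd1 and Zbtb16 were not matched. The full glucocorticoid response element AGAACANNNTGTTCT, read by exact letters, was present for 3 of the 27025 genes in the table (0.0111%), and Sgk1 was 1 of them. The sequence before this Sgk1 start, which lies within the span of the gene, is shown with the element in capitals because it is the only exact full element among the 7 genes. It covers chr10:21993640-21993889 on the plus strand, and the element begins 189 bases before the start.
Sgk1: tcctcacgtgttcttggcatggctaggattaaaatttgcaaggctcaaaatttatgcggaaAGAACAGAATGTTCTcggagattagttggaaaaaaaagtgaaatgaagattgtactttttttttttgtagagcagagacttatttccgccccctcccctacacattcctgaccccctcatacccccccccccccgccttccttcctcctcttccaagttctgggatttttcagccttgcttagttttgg
The half-site AGAACA, which is part of the full element, was found on either strand for 21.3% of all genes and for 2 of the 7, Sgk1 and Tsc22d3. These had the most sequence searched, with 6 and 3 starts in the table, against 2 for Per1 and 1 each for Fkbp5, Klf9, Mt1 and Mt2. A match is a description of letters and not a shown binding site, and its absence from this window says nothing of the receptor's binding elsewhere.

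Mt1 and Mt2, neighbours on chromosome 8, encode metallothioneins, small cysteine-rich proteins that bind zinc and copper and that are induced by metals through metal response elements as well as by glucocorticoids. Their upstream sequences are shown because both genes carry the core of the metal response element, searched on both strands as TGCACNC or TGCGCNC and marked in capitals. The Mt1 sequence covers chr8:94178839-94179088 and the Mt2 sequence chr8:94172368-94172617, both on the plus strand.
Mt1: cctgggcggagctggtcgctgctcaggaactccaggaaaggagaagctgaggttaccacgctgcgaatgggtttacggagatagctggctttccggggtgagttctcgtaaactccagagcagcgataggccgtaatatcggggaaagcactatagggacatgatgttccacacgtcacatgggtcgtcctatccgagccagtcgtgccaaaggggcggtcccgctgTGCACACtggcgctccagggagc
Mt2: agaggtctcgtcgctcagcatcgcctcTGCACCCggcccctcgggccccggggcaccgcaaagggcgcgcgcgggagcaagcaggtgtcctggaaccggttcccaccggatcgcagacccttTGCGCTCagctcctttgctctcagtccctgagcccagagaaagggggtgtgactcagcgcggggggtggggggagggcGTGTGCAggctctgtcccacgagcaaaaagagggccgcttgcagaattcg
The 250 bases before the start held 1 core for Mt1 and 3 for Mt2, and the 50 bases after it held further cores for each. This core was present for 28.2% of all genes in the table and for 4 of the 7 genes, the other two being Per1 and Sgk1. The cyclic AMP response element TGACGTCA was found for 2.03% of all genes and for 0 of the 7.

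Of the 10 genes, Rasd1 alone passed the threshold of 0.1 on the Benjamini-Hochberg adjusted p of edgeR, and it fell. Among all tested genes, 140 (1.22%) passed this threshold and 104 (0.909%) passed it with lower levels in the knockdown. In 2 of the 10 genes, Rasd1 and Zbtb16, all knockdown samples lay below all control samples, which was so for 9.55% of the tested genes, and in 0 of the 10 did all knockdown samples lie above all controls, which was so for 8.96% of the tested genes. An unadjusted p under 0.05 was found for 3 of the 10, Rasd1, Zbtb16 and Mt1, and for 12.4% of all tested genes. The fitted log2 fold change was below 0 in 9 of the 10 genes and above 0 in Fkbp5, but with libraries scaled by their size alone, which raised the median of all tested genes by 0.37, it was below 0 in 4 and above 0 in 6. After subtraction of that shift, 9 of the 10 were again below 0. The median over the 10 genes was -0.31, against 0.0044 over all tested genes, of which 49.6% were below 0. The samples of each gene are plotted with their means and SD.

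**Figure D1:**
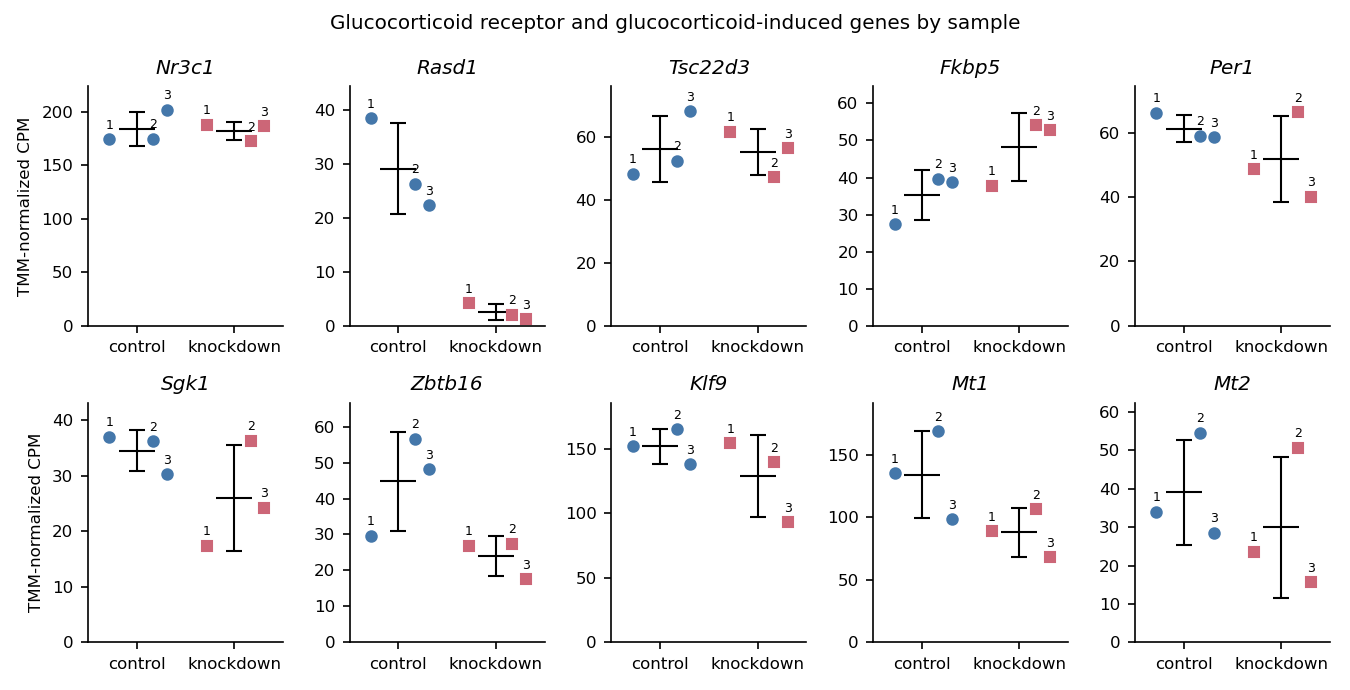
Each panel shows one gene, with TMM-normalized CPM on the vertical axis (from 0) for the 3 scrambled control samples (circles) and the 3 RBMS1 knockdown samples (squares), numbered by replicate. The horizontal bar is the mean and the whiskers are the SD. Rasd1 lies between 22.4 and 38.5 CPM in the controls and between 1.25 and 4.17 CPM in the knockdown, while the samples of the 2 groups overlap in every other panel but that of Zbtb16.

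The receptor gene itself did not pass the test. Nr3c1 (ENSMUSG00000024431, chromosome 18 of GRCm38) had 174, 175 and 202 CPM in the control samples and 188, 173 and 187 CPM in the knockdown samples. The groups overlapped, and the means were 184 ± 15.8 and 182 ± 8.45 CPM (SD, n = 3 each). The log2 fold change was -0.01 ± 0.14 (SE), with a 95% interval from -0.33 to 0.31 and an adjusted p of 0.985 from the edgeR test. The interval does not reach a halving or a doubling, a log2 fold change of 1 in size. By library size alone the log2 fold change of Nr3c1 was 0.36, close to the shift of 0.37 of the median gene.

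Fkbp5 and Tsc22d3 encode feedback regulators that are among the most widely used readouts of the receptor. Fkbp5 (ENSMUSG00000024222, chromosome 17, 28399094 to 28517527) encodes an HSP90 co-chaperone that lowers the receptor's affinity for hormone. Its CPM values were 27.4, 39.7 and 38.7 in the controls and 37.8, 54.1 and 52.8 in the knockdown samples. Knockdown replicates 2 and 3 were above every control, and knockdown replicate 1 lay among them. The log2 fold change of 0.46 ± 0.21 (SE; 95% interval -0.01 to 0.93) had an adjusted p of 0.415 from the edgeR test, so this gene, with the only positive value of the 10, did not pass. Without control replicate 1, the lowest sample, it was at 0.31. Tsc22d3 (ENSMUSG00000031431, chromosome X, 140539528 to 140600659), also called Gilz, encodes a leucine zipper protein that mediates anti-inflammatory effects of glucocorticoids. Its CPM values were 48.4, 52.6 and 68.3 in the controls and 61.8, 47.3 and 56.5 in the knockdown samples. The knockdown samples spanned nearly the same range as the controls. The log2 fold change was -0.03 ± 0.18 (SE; 95% interval -0.44 to 0.38; adjusted p = 0.962 from the edgeR test), and by library size alone it was 0.34.

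Rasd1 and Sgk1 are the signaling genes among the 10. Rasd1 (ENSMUSG00000049892) encodes a small GTPase of the Ras family that was first described as a dexamethasone-induced transcript, and it lies on chromosome 11 from 59963181 to 59964944 on the minus strand. Its counts were 240, 53 and 130 in the controls and 29, 18 and 17 in the knockdown samples, or 38.5, 26.3 and 22.4 CPM against 4.17, 2.10 and 1.25 CPM. The highest knockdown sample was thus well below the lowest control, and each knockdown sample was above the level of 3 counts. The means were 29.0 ± 8.39 and 2.51 ± 1.50 CPM (SD, n = 3 each). The log2 fold change was -3.57 ± 0.43 (SE, 95% interval -4.53 to -2.61), an 11.9-fold lower level, with a Benjamini-Hochberg adjusted p of 0.0125 from the edgeR quasi-likelihood test. Among the 11440 tested genes, Rasd1 was number 11 by p and number 12 from the lowest log2 fold change. The call held under all 17 alternatives tried, with log2 fold changes from -4.12 to -3.21 and an adjusted p of at most 0.0713. Without scrambled control replicate 2, the sample rich in ribosomal RNA, the log2 fold change was -3.68 with an adjusted p of 0.0603 from the edgeR test.

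The 3 tested genes with the sample profile nearest to that of Rasd1 were Slc7a2, an amino acid transporter gene, Acta1, which encodes skeletal muscle actin, and Enpp2, which encodes the lysophosphatidic acid-producing enzyme autotaxin. Nearness was the root mean square difference of log2 CPM, centred per gene, over the 6 samples, and it was 0.550 for Slc7a2, 0.615 for Acta1 and 0.647 for Enpp2. Their log2 fold changes were -2.73, -4.06 and -2.09, and these lower levels follow from the choice, since the Rasd1 profile itself is low in the knockdown. Slc7a2 and Acta1 lie on chromosome 8.

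Sgk1 (ENSMUSG00000019970, chromosome 10, 21882184 to 21999903), the gene whose promoter holds the full response element printed above, encodes a kinase that stimulates sodium transport and is induced by glucocorticoids and mineralocorticoids. Its CPM values were 37.0, 36.2 and 30.3 in the controls and 17.4, 36.4 and 24.3 in the knockdown samples. Knockdown replicates 1 and 3 lay below every control, whereas knockdown replicate 2 was level with them. The log2 fold change was -0.41 ± 0.26 (SE; 95% interval -0.99 to 0.17; adjusted p = 0.568 from the edgeR test). It was -0.71 without knockdown replicate 2 and -0.18 without knockdown replicate 1.

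Per1, Klf9 and Zbtb16 encode transcriptional regulators. Per1 (ENSMUSG00000020893, chromosome 11, 69095217 to 69109960), a repressor in the circadian clock that glucocorticoids induce quickly, had 66.2, 59.1 and 58.5 CPM in the controls and 48.6, 66.3 and 40.2 CPM in the knockdown samples. The groups overlapped through knockdown replicate 2, and the log2 fold change was -0.25 ± 0.20 (SE; 95% interval -0.69 to 0.20; adjusted p = 0.668 from the edgeR test). This value was -0.45 without knockdown replicate 2 and -0.089 without knockdown replicate 3. Klf9 (ENSMUSG00000033863, chromosome 19, 23141226 to 23168134), a Krüppel-like zinc finger factor, had 152, 165 and 138 CPM in the controls and 155, 139 and 93.1 CPM in the knockdown samples. Only knockdown replicate 3 lay below the controls, and the log2 fold change was -0.23 ± 0.20 (SE; 95% interval -0.68 to 0.21; adjusted p = 0.686 from the edgeR test). Without knockdown replicate 3 it was -0.041, and without knockdown replicate 1 it was -0.38. By library size alone the log2 fold changes of Per1 and Klf9 were 0.11 and 0.15.

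Zbtb16 (ENSMUSG00000066687, chromosome 9, 48654297 to 48836222) encodes the zinc finger repressor PLZF, a strongly glucocorticoid-induced gene in many cell types. Its CPM values were 29.7, 56.6 and 48.2 in the controls and 26.9, 27.5 and 17.5 in the knockdown samples. The groups did not overlap, although control replicate 1 lay close to knockdown replicates 1 and 2. The means were 44.8 ± 13.8 and 24.0 ± 5.57 CPM (SD, n = 3 each), a log2 fold change of -0.90 ± 0.27 (SE; 95% interval -1.50 to -0.29). Its Benjamini-Hochberg adjusted p was 0.199 by the edgeR test and did not pass, while DESeq2 gave an adjusted p of 0.0960, under the threshold. Without scrambled control replicate 2, the highest sample, it was at -0.71, with an adjusted p of 0.526 by edgeR.

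**Figure D2:**
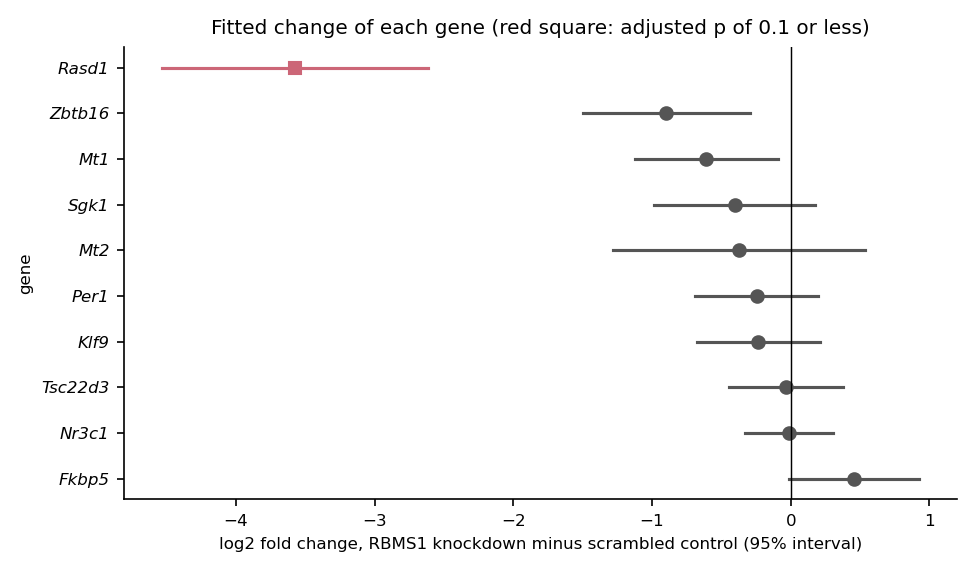
Log2 fold change of RBMS1 knockdown against scrambled control on the horizontal axis for each of the 10 genes, with the 95% interval of the edgeR fit as a line. The square marks an adjusted p of 0.1 or less and the vertical line marks 0. Rasd1, at -3.57, is the only gene marked, the intervals of Zbtb16 and Mt1 lie below 0, and those of the other genes span 0.

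The metallothionein genes had the highest mean levels of the 10 per kilobase of exon. Mt1 (ENSMUSG00000031765, chromosome 8, 94179082 to 94180327) had 135, 169 and 98.6 CPM in the controls and 88.8, 107 and 68.2 CPM in the knockdown samples. Knockdown replicates 1 and 3 lay below every control and knockdown replicate 2 lay among them, and the log2 fold change was -0.61 ± 0.23 (SE; 95% interval -1.12 to -0.09; adjusted p = 0.313 from the edgeR test). Mt2 (ENSMUSG00000031762, chromosome 8, 94172664 to 94173568) had 34.0, 54.6 and 28.6 CPM in the controls and 23.6, 50.6 and 15.6 CPM in the knockdown samples. Replicate 2 was the highest sample within each group, the groups overlapped, and the log2 fold change was -0.37 ± 0.40 (SE; 95% interval -1.28 to 0.54; adjusted p = 0.761 from the edgeR test). Single samples moved the Mt2 value, to -0.97 without knockdown replicate 2, -0.069 without control replicate 2, -0.060 without knockdown replicate 3, -0.23 without knockdown replicate 1 and -0.56 without control replicate 3. The ratio of Mt1 to Mt2 counts was 3.99, 3.09 and 3.45 in the controls and 3.77, 2.11 and 4.36 in the knockdown samples, so it overlapped between the groups. As close copies of each other, the genes can share reads, and how the estimates divided such reads was not tested, but all values of both genes were whole (tolerance 1.0e-06). The family members Mt3 and Mt4 had 0 counts in all samples, which allows up to 0.220 to 1.49 CPM per sample.

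Most tested genes of chromosome 8 were below 0 in this comparison. Of its 624 tested genes, 90.1% had a negative log2 fold change (median -0.38) and 25 were called lower, while 47.3% of the 10816 other tested genes were negative (median 0.021). Counted from the lowest log2 fold change on the chromosome, Mt1 was number 137 and Mt2 number 325 of 624. Within 500 kb of the pair, all 14 tested genes, Mt1 and Mt2 included, were below 0, from Herpud1 at -0.64 to Bbs2 at -0.12. With the median of each chromosome removed from each sample, Mt1 was at -0.21 (adjusted p = 0.826 from the edgeR test) and Mt2 at 0.037.

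**Figure D3:**
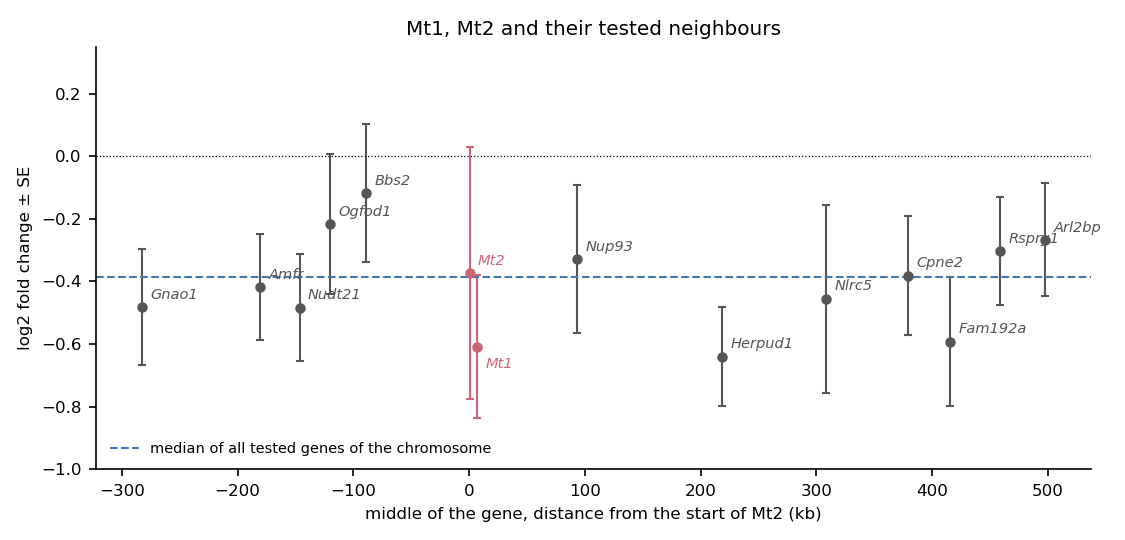
Log2 fold change (knockdown minus control, points, with SE as whiskers) of Mt1, Mt2 and the other tested genes within 500 kb, against the distance of each gene's middle from the start of Mt2 in kb; the dashed line is the median of all 624 tested genes of the chromosome (-0.38) and the dotted line is 0. All 14 points are below 0, and Mt1 and Mt2 lie within the range of their neighbours.

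Levels of different genes were compared as CPM per kilobase of exon. Exon length was the union of all annotated exons, which for Mt1 (1246 bases) covers its whole span and for Mt2 is 588 bases. The levels per kilobase, and the gap between these 2 genes, thus depend on the annotation. In the controls the order by mean level was Mt1 (108), Mt2 (66.4), Klf9 (31.5), Nr3c1 (23.9), Rasd1 (18.0), Tsc22d3 (13.0), Per1 (10.9), Zbtb16 (8.48), Sgk1 (7.04) and Fkbp5 (3.73). The ranges of neighbours in this order overlapped between control samples, except for Mt2 above Klf9, Klf9 above Nr3c1 and Sgk1 above Fkbp5. Within each control sample Mt1 was also above Mt2, at 109 against 57.8, 135 against 92.8 and 79.1 against 48.6. In the knockdown samples Rasd1 stood last with 1.56 CPM per kilobase, and every sample of it was below every sample of Zbtb16 (4.54). By mean level the order of the first 4 genes was the same in both groups. In the knockdown these means were 70.6, 50.9, 26.8 and 23.7 CPM per kilobase, and neighbours among the 4 overlapped between samples. In knockdown replicate 2 Mt2 (86.1) was above Mt1 (85.7), and in knockdown replicate 3 Nr3c1 (24.3) was above Klf9 (19.3). The knockdown samples were uneven among themselves. Replicate 3, which had the highest Rbms1 level of its group, was the lowest knockdown sample for 6 of the 10 genes and the highest for 0, and replicate 2 was the highest for 6. Without knockdown replicate 3 the median log2 fold change of the 10 genes was -0.074, and without knockdown replicate 2 it was -0.58.

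The other genes of the pathway were read from lists by role. For each list the shares over all tested genes are the background: 49.6% below 0, 12.4% with an unadjusted p under 0.05 and 1.22% called. The list of chaperones, among them those that fold and carry the receptor, had 18 tested genes. Of these, 14 were below 0 (median -0.15), with 0 called higher and 1 called lower. This median was -0.30 without control replicate 1, -0.057 without control replicate 2 and 0.26 by library size alone. The called gene was Dnajb1, an HSP40 co-chaperone gene of the heat shock response on chromosome 8. Its CPM values were 66.4, 56.1 and 75.9 in the controls and 19.8, 32.5 and 23.5 in the knockdown samples, without overlap, and its log2 fold change was -1.39 ± 0.22 (SE; adjusted p = 0.0333 from the edgeR test). With chromosome medians removed its adjusted p was 0.159, by library size alone 0.169, and without any 1 control sample between 0.106 and 0.175, from the same edgeR test. The corresponding log2 fold changes were -0.99, -1.04 and between -1.49 and -1.28. The HSP90 genes Hsp90aa1 and Hsp90ab1 were at 0.13 and -0.21, and neither passed.

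Among the coregulators, 23 were tested, 13 were below 0 (median -0.01) and 0 were called by edgeR, with 1 at an unadjusted p under 0.05. The smallest p belonged to Ppargc1a, the PGC-1α coactivator of mitochondrial genes, at -1.09 (adjusted p = 0.140 from the edgeR test), and the next to Ncoa2, a p160 coactivator of steroid receptors, at 0.24 (adjusted p = 0.508). With chromosome medians removed Ncoa2 was at 0.0016. The list median was 0.086 without knockdown replicate 1, 0.050 without control replicate 1 and -0.069 without knockdown replicate 3. DESeq2 called 1 coregulator, Ppargc1a (adjusted p = 0.0596), and limma-voom called 0. Of 14 genes for glucocorticoid activation and other steroid receptors, 8 were tested, 7 were below 0 (median -0.14) and 0 were called by edgeR, with 2 at an unadjusted p under 0.05. These were Mc2r, the corticotropin receptor gene, at -1.20 (adjusted p = 0.147), and Nr3c2, the mineralocorticoid receptor gene on chromosome 8, at -0.75 (adjusted p = 0.161). Nr3c2 had 16.5, 14.4 and 16.0 CPM in the controls and 9.78, 8.77 and 9.47 CPM in the knockdown samples, without overlap, and with chromosome medians removed it was at -0.36 (adjusted p = 0.628 from the edgeR test). DESeq2 called 1 gene of the list, Mc2r (adjusted p = 0.0823), and limma-voom 0. Without knockdown replicate 2 the list median was 0.012, and without control replicate 2 it was -0.23. Hsd11b1, which encodes the enzyme that regenerates active glucocorticoid inside adipocytes, had 125, 82.9 and 99.3 CPM in the controls and 174, 82.5 and 99.4 CPM in the knockdown samples, at 0.21 (adjusted p = 0.809), and was chosen after its values were seen.

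A list of 48 other glucocorticoid-induced genes had 44 tested genes, of which 27 were below 0 (median -0.13), with 0 called higher and 2 called lower. Dusp1, which encodes a phosphatase that switches off MAP kinases, had 128, 85.9 and 123 CPM in the controls and 10.6, 40.2 and 19.2 CPM in the knockdown samples. The groups did not overlap, and the log2 fold change was -2.27 ± 0.41 (SE; adjusted p = 0.0578 from the edgeR test). Errfi1, which encodes an inhibitor of the epidermal growth factor receptor, had 61.2, 49.1 and 54.2 CPM in the controls and 26.6, 29.0 and 34.0 CPM in the knockdown samples. These groups did not overlap either, at -0.88 ± 0.17 (SE; adjusted p = 0.0730 from the edgeR test). Without any 1 of the control samples neither gene was called, with adjusted p of 0.152 to 0.215 for Dusp1 and 0.171 to 0.238 for Errfi1 from the edgeR test. Their log2 fold changes were then -2.42 to -2.16 for Dusp1 and -0.95 to -0.79 for Errfi1, and 12 to 32 genes were called over the whole table. Errfi1 was also not called without knockdown replicate 2 (0.234) or by library size alone (0.376, at -0.52). An unadjusted p under 0.05 was found for 10 of the 44, against 12.4% of all tested genes, of which 0.909% were called lower. DESeq2 called 4 genes of the list, all lower, adding Acsl1 and Irs2, and limma-voom called Dusp1 and Errfi1.

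**Figure D4:**
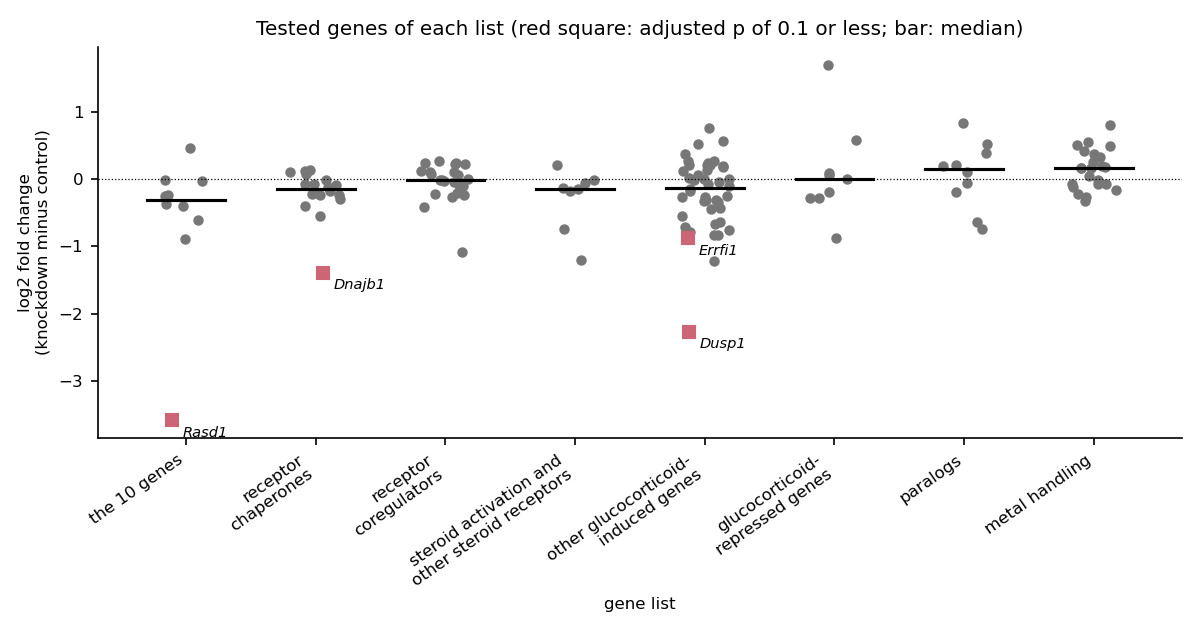
Log2 fold change (knockdown minus control) of every tested gene of the 10 genes and of each list by role (cell type markers are not drawn), with a bar at the median of the list and red squares for an adjusted p of 0.1 or less. Rasd1, Dnajb1, Dusp1 and Errfi1 are the only squares, all below 0, and the medians lie between -0.31 and 0.16.

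Genes that glucocorticoids repress were read in the same way. Of 21, 9 were tested, 4 were below 0 (median 0.0014) and 0 were called by edgeR, with 1 at an unadjusted p under 0.05. That gene was Mmp13, a collagenase gene, with 2.40, 0.993 and 1.72 CPM in the controls and 6.18, 7.48 and 4.33 CPM in the knockdown samples, at 1.69 (adjusted p = 0.129 from the edgeR test). Control replicate 2 had 2 counts of Mmp13, under the level of 3 counts. The chemokine gene Cxcl1 was at -0.87 (adjusted p = 0.496), and at -0.46 without knockdown replicate 1, -0.53 without control replicate 1 and -1.42 without knockdown replicate 2. The list median rested on single samples, at 0.46 without control replicate 1, 0.22 without knockdown replicate 1 and between -0.39 and -0.14 without any 1 of the other samples. DESeq2 called 1 of the genes, Mmp13 (adjusted p = 0.0781), and limma-voom 0. Of 16 paralogs of the 10 genes, 10 were tested, 4 were below 0 (median 0.15) and 0 were called by edgeR, with 2 at an unadjusted p under 0.05, namely Nr3c2 and Klf13. Klf13, a relative of Klf9, had 120, 130 and 111 CPM in the controls and 85.2, 75.9 and 69.7 CPM in the knockdown samples, without overlap, at -0.65 (adjusted p = 0.111). It was the 1 paralog called by DESeq2 (adjusted p = 0.0291), and limma-voom called 0. The median of the paralogs was 0.047 without knockdown replicate 2 and 0.52 by library size alone. Without knockdown replicate 1, where 696 genes were called over the whole table, the edgeR test also called Klf13 (adjusted p = 0.0387), Ppargc1a (0.0773), Mc2r (0.0505) and Mmp13 (0.0949), and by library size alone it called Mmp13 (0.0885).

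Genes for zinc and copper handling, listed beside the metallothioneins, had 23 tested genes, of which 9 were below 0 (median 0.16) and 0 were called by edgeR, with 4 at an unadjusted p under 0.05. The smallest p belonged to Slc30a1, a zinc exporter gene that metals induce through the same element as the metallothioneins. It had 13.6, 10.4 and 13.1 CPM in the controls and 25.4, 18.4 and 21.5 CPM in the knockdown samples, at 0.80 (adjusted p = 0.154 from the edgeR test). The groups did not overlap, and the values were higher in the knockdown. Those of Mt1 and Mt2, which did not pass either, were mostly lower. With chromosome medians removed Slc30a1 was at 0.56 (adjusted p = 0.408 from the edgeR test), Mt1 at -0.21 and Mt2 at 0.037. A link between these genes was not tested. The zinc importer gene Slc39a14 was at 0.50 (adjusted p = 0.251). DESeq2 and limma-voom also called 0 genes of this list. Without knockdown replicate 1 its median was 0.034.

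Markers of cell type and state were read in the same samples. Of 18 tested adipocyte markers, 17 were below 0 (median -0.45) and 1, Retn on chromosome 8, was called lower at -1.67 (adjusted p = 0.0967 from the edgeR test). Adipoq, at 2163, 2109 and 2649 CPM in the controls and 2493, 1056 and 2296 CPM in the knockdown samples, overlapped between the groups, at -0.24 (adjusted p = 0.815 from the edgeR test). Cebpa, an adipogenic transcription factor gene, was at -0.61 (adjusted p = 0.319), and at -0.38 without knockdown replicate 2. The preadipocyte markers Dlk1 and Pdgfra were at -0.84 and -0.87 (adjusted p = 0.388 and 0.155 from the edgeR test), and DESeq2 called Pdgfra (adjusted p = 0.0277). Without knockdown replicate 1, Dlk1 was at -0.49 and the edgeR test called Cebpa (adjusted p = 0.0609) and Pdgfra (adjusted p = 0.0665). The summed adipocyte markers ranged from 70269 to 86521 CPM in the controls and from 42899 to 93705 CPM in the knockdown samples. Of 17 tested fibroblast and preadipocyte markers, 12 were below 0 (median -0.24) and 2 were called lower, Lum at -1.92 and Sfrp2 at -3.36 (adjusted p = 0.0333 for both from the edgeR test), with summed levels of 13674 to 15894 CPM against 8597 to 17956 CPM. An unadjusted p under 0.05 from the edgeR test was found for 6 of the 18 adipocyte markers and 5 of these 17. Among all tested genes the share was 12.4%. Retn, Lum and Sfrp2 were named after their values were seen, and they were not called in 10, 3 and 4 of the 17 alternatives. Over these alternatives their log2 fold changes ran from -2.27 to -1.26, -2.24 to -1.51 and -4.16 to -2.95. DESeq2 called 1 adipocyte marker higher and 4 lower, 4 fibroblast and preadipocyte markers lower, and 0 markers of the other cell types. Macrophage and blood cell markers summed to 3.21 to 5.46 CPM in the controls and 5.18 to 9.76 CPM in the knockdown samples, 5 of the 12 were at 0 in all samples, including Ptprc and Adgre1, and 2 were tested, with 0 called by edgeR and 0 at an unadjusted p under 0.05. Endothelial and muscle cell markers summed to 120 to 222 CPM and 45.6 to 326 CPM, 3 of the 10 were at 0 in all samples, and 3 were tested, with 0 called by edgeR and 1 at an unadjusted p under 0.05. The part of these marker differences in the values of the 10 genes was not tested, and in bulk samples fewer cells of a type and less RNA per cell cannot be told apart.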

How the data were processed

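RNA from 6 samples of 3T3-L1 adipocytes, 3 per group, was sequenced after ribosomal RNA depletion with a stranded kit. The authors trimmed reads with Trim Galore 0.6.7, used STAR 2.7.10a for alignment to GRCm38 and deposited the estimated counts per gene from Salmon 1.9.0, without normalization; the annotation release is not given in the sources used here. The estimated counts were rounded, since 3.97% to 7.78% of a sample's values were not whole (tolerance 1.0e-06). The 2 groups were compared with the quasi-likelihood test of edgeR 4.0.16 under R 4.3.3, after its default filter on low counts and TMM scaling and with no covariate, and p-values were adjusted by Benjamini-Hochberg over 11440 genes with a threshold of 0.1. With 3 samples against 3, the p-values measure the spread between these samples, described by the study as biological replicates.

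The 10 genes, the gene lists and the marker lists were chosen with earlier results of these data known. Named genes are the 10, Rbms1, the called genes of each list or otherwise the 2 with the smallest p, fixed markers, and the 3 genes nearest to Rasd1; Hsp90aa1, Hsp90ab1, Hsd11b1, Acsl1, Irs2, the chromosome 8 neighbours and the called markers were added after their values were seen. Alternatives were DESeq2 1.42.0, limma-voom (limma 3.58.1), other scaling, other filters, unrounded counts, a replicate block, removed chromosome medians and each sample left out. The earlier quasi-likelihood estimates of edgeR were added after seeing the data. Promoter sequences are from RefSeq.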

Additional observations from a re-analysis of the deposited data

How the results depend on the processing

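Rasd1 was called in all 17 alternatives, and its log2 fold change ranged from -4.12 to -3.21, both with a sample left out. The number of the 10 genes called was 2 under DESeq2, where Zbtb16 joined at -0.88, and 1 in every other alternative. Over the whole table, 430 genes were called by DESeq2 and 268 with no filter on low counts. Both were run without the main filter, so these counts are not out of the 11440 genes. With chromosome medians removed 71 were called, with the replicate block 39, and with a sample left out 12 to 696. Of the calls of the main fit, 74.3% were lower in the knockdown, against 33.3% by library size alone. Same-numbered samples did not show a pairing, as their deviations correlated at -0.14, 0.079 and -0.028, against -0.17 to 0.21 for differently numbered samples. With 3 samples per group this check cannot decide whether the samples were paired. Under the block Dnajb1, Dusp1 and Errfi1 were not called, with log2 fold changes of -1.41, -2.46 and -0.88. By library size alone, which moved the median of all tested genes up by 0.37, the fold changes turned positive for 5 of the 10 genes and for Adipoq, with Nr3c1 at 0.36, Tsc22d3 at 0.34, Per1 at 0.11, Klf9 at 0.15, Mt2 at 0.044 and Adipoq at 0.14, and all of these were below 0 again once the shift was subtracted. On that scale the medians of the 10 genes and of the lists by role lay between 0.076 and 0.52. Nr3c1 was also above 0 under DESeq2 (0.0036) and with no filter (0.0100), Mt2 with chromosome medians removed (0.037), while Hsd11b1 was then at -0.029. With a sample left out, Nr3c1 ranged from -0.048 to 0.065, Tsc22d3 from -0.13 to 0.13, Hsd11b1 from -0.16 to 0.43, Adipoq from -0.45 to 0.068 and Rbms1 from -0.92 to -0.52. The causes were not tested. The 17 to 29 Rasd1 counts of the knockdown samples limit the precision of its fold change.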
